A study of Mus musculus with 4 samples.

Results

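Levels of 9 genes of the B cell receptor and the B lineage were followed in mouse leukaemic spleen cells kept with or without R848. The 9 genes are Cd79a, Cd79b, Ms4a1, Cd22, Pax5, Ebf1, Blnk, Fcrla and Pou2af1. They were taken by name from the 28074 gene symbols of the deposited table, and all 9 were found. The cells came from 2 mice, numbered 4050 and 4182, with acute myeloid leukaemia. Both mice were labelled Dnmt3a fl/fl, Flt3 ITD/ITD, Mx1Cre, while the protocols also write the leukaemia as Dnmt3a+/- with Flt3ITD, so the Dnmt3a genotype was not settled. Dnmt3a encodes a DNA methyltransferase, the Flt3 internal tandem duplication is an activating change in a receptor tyrosine kinase, and Mx1Cre is a recombinase under an interferon-inducible promoter. The mutations are shared by all 4 samples, no ages are stated in the labels, and no genetically normal cells were part of the comparison. Thawed splenocytes of each mouse recovered for 24 hours in medium with 20% serum, SCF at 60 ng/ml, IL6 at 20 ng/ml and IL3 at 20 ng/ml. From each mouse, 500000 cells then received vehicle (control, n = 2), and an equal number received R848 at 10 µg/ml (n = 2), over 3 days. R848 is resiquimod, an imidazoquinoline known to activate the endosomal RNA sensor TLR7. The question set by the study was which genes and pathways change with R848.

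The B cell receptor is a membrane antibody bound to a heterodimer of Cd79a and Cd79b, whose cytoplasmic tails carry the motifs that recruit kinases once antigen binds. Blnk is the adaptor that joins these kinases to downstream enzymes, while Cd22 dampens the signal. Ebf1 and Pax5 are the transcription factors that set up and hold B cell identity, and Pou2af1 is the coactivator that works with octamer-binding factors in B cells. B cells are a major cell type of normal mouse spleen, and they carry TLR7. In myeloid leukaemia most of these genes are known as lineage markers of other cells, although Cd79b and Blnk are not restricted to B cells.

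The deposited table is on a log2(value + 1) scale, and the authors named the underlying values FPKM, which are fragments scaled to transcript length and library size. Linear values summed to between 950530 and 962001 in each library. The table holds no read counts, so depth is unknown. Myeloid markers were abundant in every library. The 13 myeloid markers examined, among them Lyz2, Mpo, Elane, Prtn3 and Ctsg, summed to 13000 and 12100 FPKM in control and to 14900 and 13600 FPKM with R848 in mice 4050 and 4182. Dnmt3a was at 14.5 and 15.7 FPKM in control and at 14.4 and 13.0 FPKM with R848, a whole-gene value that does not check the floxed exons. Flt3 was at 1.57 and 1.92 FPKM in control and at 0.331 and 0.0942 FPKM with R848. Differences below are given in log2(FPKM + 1), which understates the change of genes with low values. Tests are limma over the 12612 genes whose mean across the libraries reached 1 FPKM, with Benjamini-Hochberg adjustment and a threshold of 0.05. The samples were not paired by mouse in these tests, unless the mouse is named as a block.

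All 9 genes were higher with R848 in both mice, as were 19.7% of symbols above 0 in at least 1 sample, and 4 of the 9 passed the test. Pou2af1, Ms4a1 (which encodes CD20), Cd79a and Fcrla rose, with log2 differences of 2.53, 2.52, 1.77 and 1.61. Cd79b, Cd22 and Blnk were tested and did not pass in this unpaired fit, with log2 differences of 0.86, 0.79 and 0.77. With the mouse as a block 5 members passed, Cd79b among them (limma adjusted p = 0.0138), and that fit called 3.4% of all genes higher. Pax5 and Ebf1 had means under 1 FPKM and were not tested, and their log2 differences were 0.97 and 0.63. The median difference over all 9 genes was 0.97, against -0.03 over the 21710 symbols above 0 in at least 1 sample. In control, 8 of the 9 genes had a mean under 1 FPKM, the exception being Cd79b.

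The background share of calls depends on the level in control. Over all tested genes, 1.47% were called higher. Of the 7 members tested, 6 reached the 1 FPKM filter only through their R848 samples, and a gene of that kind had to differ between the groups. Among the 218 genes of the table tested in this way, 22.0% were called higher, beside 4 of these 6 members. For all 9 genes both R848 samples lay above both controls, a pattern seen in 12.8% of symbols above 0 and in 13.6% of those with a control mean under 1 FPKM. The members were chosen with earlier results of these data known, so these counts are a description. In bulk RNA, a change in the number of B lineage cells cannot be told apart from a change in RNA per cell.

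**Figure D1:**
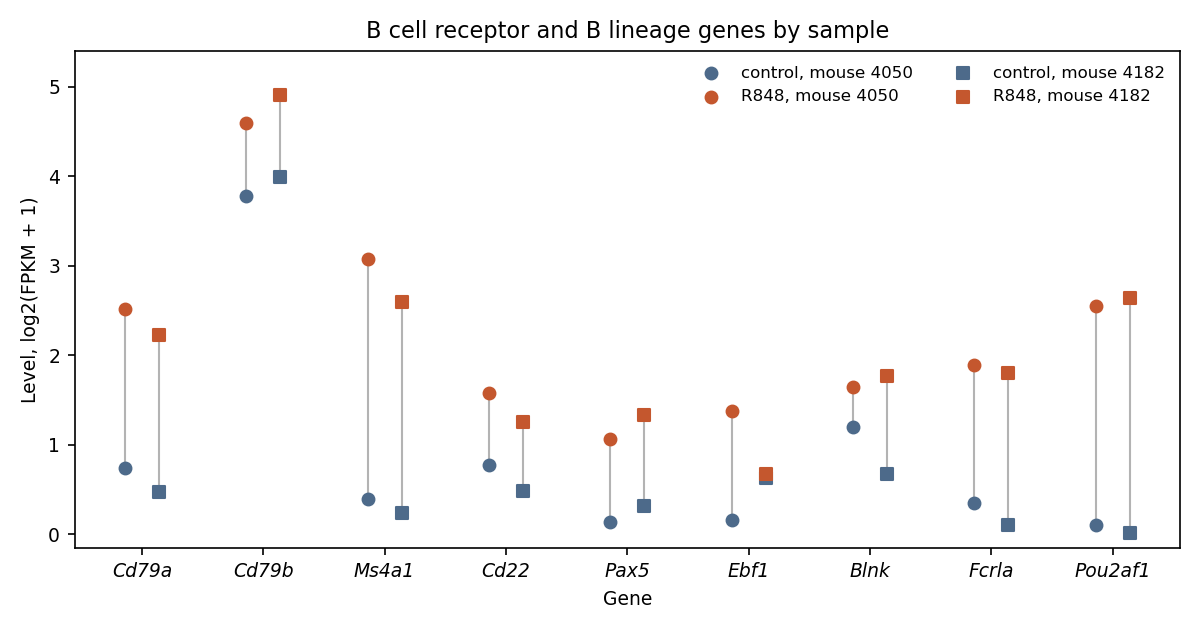
Level of the 9 genes in each sample, in log2(FPKM + 1), with circles for mouse 4050 and squares for mouse 4182, blue for control and orange for R848, and a grey line joining the samples of 1 mouse. Every orange point lies above the blue point of the same mouse, Cd79b starts well above the other 8 genes, and the Ebf1 pair of mouse 4182 nearly coincides (0.63 and 0.67).

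Promoter sequence was looked at because the members were all higher with R848. RefSeq windows on GRCm38.p6, running from 250 bases before to 50 after each start, were matched by symbol for 7 of the 9 genes. Cd79b and Ms4a1 were not matched. The windows of Cd22, Blnk and Ebf1 lie inside the annotated spans given for these genes below, so their starts are RefSeq starts within the gene. The bases upstream of every annotated start are shown for the 3 called members with a window, 5′ to 3′ on the strand of the gene. Capitals mark matches, on either strand, to the E-box CAGGTG known to bind the E2A proteins, to GAGGAA, the core bound by PU.1, and to GAAANNGAAA, the core of the interferon-stimulated response element.
Cd79a, chr7:24897247-24897380, plus strand: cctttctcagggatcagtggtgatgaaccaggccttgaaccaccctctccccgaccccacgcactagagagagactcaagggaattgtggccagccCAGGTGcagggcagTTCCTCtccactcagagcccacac
Fcrla, chr1:170927584-170927833, minus strand: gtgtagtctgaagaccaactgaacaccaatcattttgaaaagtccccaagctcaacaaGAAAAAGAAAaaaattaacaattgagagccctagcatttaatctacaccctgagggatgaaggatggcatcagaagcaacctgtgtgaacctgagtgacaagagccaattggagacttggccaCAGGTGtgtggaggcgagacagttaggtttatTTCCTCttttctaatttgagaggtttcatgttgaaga
Pou2af1, chr9:51213440-51213689, plus strand: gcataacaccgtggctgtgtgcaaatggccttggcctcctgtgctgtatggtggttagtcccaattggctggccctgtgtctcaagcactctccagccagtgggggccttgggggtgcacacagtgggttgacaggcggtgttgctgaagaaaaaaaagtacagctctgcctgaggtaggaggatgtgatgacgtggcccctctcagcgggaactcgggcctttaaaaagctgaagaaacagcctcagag

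The E-box was found in windows of 4 of the 7 genes (Cd79a, Cd22, Blnk and Fcrla), beside 20.2% of the 32851 windows in the RefSeq table. Members are counted here by gene and the background by window, and Ebf1 has 2 windows, so the shares are not alike in unit. GAGGAA was found for 4 of the 7 (Cd79a, Ebf1, Fcrla and Pou2af1) beside 28.3%, in Pou2af1 downstream of its start and so outside the printed bases. GAAANNGAAA was found for Fcrla, with its first base 192 bases before the start, and in 1 of the 2 windows of Ebf1, beside 3.44% of windows. The octamer ATGCAAAT, the site of the factors that Pou2af1 binds, was found for Blnk alone, beside 1.74%. It reads ATTTGCAT on the strand of the gene, 130 bases before the RefSeq start and inside the annotated span. The Ebf1 palindrome TCCCNNGGGA was found for Cd22 alone, beside 0.904%. It reads TCCCTGGGGA, 49 bases before the RefSeq start and also inside the annotated span. The NF-kB consensus matched none of the 7 genes and 8.46% of windows. None of these matches was tested for binding, and the matches are a description of letters. No 2 matches overlapped in the printed windows.

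Of the receptor's signalling pair, Cd79a rose and Cd79b did not pass the test without the mouse as a block. Cd79a (GRCm38 chromosome 7, 24897381 to 24902197), the alpha chain, was at 0.668 and 0.382 FPKM in control and at 4.73 and 3.69 FPKM with R848 in mice 4050 and 4182. Both R848 values were far above both controls, and the log2 difference was nearly the same in the mice, at 1.78 and 1.76. Its mean went from 0.525 ± 0.202 to 4.21 ± 0.731 FPKM (SD, n = 2 each). The mean log2 difference was 1.77 with SE 0.25, and the call passed at limma adjusted p = 0.0194. Cd79b (chromosome 11, 106311341 to 106314762), the beta chain, was at 12.8 and 14.9 FPKM in control and at 23.0 and 29.2 FPKM with R848. These groups did not overlap either, but the control level was much higher than that of its partner. The log2 difference of Cd79b was 0.86 (95% interval 0.41 to 1.32, limma adjusted p = 0.0961). With the mouse as a block the limma adjusted p of Cd79b was 0.0138, and among all genes that fit called 3.4% higher.

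The pair differed in balance between the conditions. Cd79b stood at 19.1 and 39.0 times the FPKM of Cd79a in control and at 4.87 and 7.9 times with R848, in mice 4050 and 4182. The ratio was thus lower with R848 in both mice. The control ratios divide by low values of Cd79a (0.668 and 0.382 FPKM), and without read counts their precision is unknown. Counted as FPKM gained with R848, Cd79b gained 10.3 and 14.3 and Cd79a gained 4.06 and 3.31, which is a ratio of 2.53 in mouse 4050 and 4.31 in mouse 4182. In control, Cd79b was thus present without a comparable level of Cd79a, and which cells it came from was not tested.

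The surface and Fc receptor-like members divided into Ms4a1 and Fcrla, which rose, and Cd22, which did not pass. Ms4a1 (chromosome 19, 11249675 to 11266241) encodes CD20, a membrane protein of B cells. It was at 0.313 and 0.181 FPKM in control and at 7.45 and 5.05 FPKM with R848. In control it was close to undetected in both mice, and with R848 it was the second most abundant member in mouse 4050 and the third in mouse 4182. Its log2 difference was 2.52 (SE 0.26, limma adjusted p = 0.00553), which ranked 70 among the rises of the 12612 tested genes.

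Fcrla (chromosome 1, 170917576 to 170927583) encodes an Fc receptor-like protein held inside B cells. Its level was 0.276 and 0.0797 FPKM in control and 2.71 and 2.48 FPKM with R848. The R848 samples of the mice were close to each other, while the controls differed more in proportion. The log2 difference was 1.61 (SE 0.25, limma adjusted p = 0.0234), and the call ended after scaling by the median log ratio (adjusted p = 0.0519) and after quantile normalization (adjusted p = 0.0743). Its annotated span holds the processed pseudogene Gm2962 on the same strand, which was at no more than 0.914 FPKM and was lower with R848.

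Cd22 (chromosome 7, 30865402 to 30880342), an inhibitory lectin of the Siglec family that recruits phosphatases to the receptor, was at 0.705 and 0.401 FPKM in control and at 1.99 and 1.4 FPKM with R848. The groups did not overlap, and the shift was alike in the mice (0.81 and 0.78 in log2). Its log2 difference of 0.79 had a 95% interval from 0.18 to 1.41 and did not pass (limma adjusted p = 0.272, and 0.12 with the mouse as a block).

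The adaptor Blnk (chromosome 19, 40928927 to 40994535) was at 1.3 and 0.596 FPKM in control and at 2.13 and 2.41 FPKM with R848. The controls were more than 2 times apart, the R848 samples close together, so that the log2 shift was 0.45 in mouse 4050 and 1.1 in mouse 4182. The log2 difference of 0.77 (95% interval 0.14 to 1.4) did not pass (limma adjusted p = 0.306). Blnk also works downstream of other immune receptors in macrophages.

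Among the transcriptional regulators, the coactivator Pou2af1 had the lowest control level of the 9 genes and a log2 difference close to that of Ms4a1. Pou2af1 (chromosome 9, 51213708 to 51240080), also called OCA-B or BOB.1, was at 0.0826 and 0.0158 FPKM in control and at 4.88 and 5.23 FPKM with R848. Control values were near 0 in both mice and the R848 values almost equal. Its log2 difference was 2.53 (SE 0.23, limma adjusted p = 0.00368), rank 69 among the rises of all tested genes. The octamer factor with which it works in B cells, Pou2f2 (Oct-2), was at 0.191 and 0.177 FPKM in control and at 0.662 and 0.905 FPKM with R848, under the filter and not tested.

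Pax5 (chromosome 4, 44524757 to 44710487), the factor that commits cells to the B lineage, was at 0.104 and 0.249 FPKM in control and at 1.09 and 1.52 FPKM with R848. The groups were well apart on a low scale, with log2 shifts of 0.92 and 1.01. At a filter of 0.5 FPKM, chosen after the data were seen, Pax5 was tested and did not pass (limma adjusted p = 0.124). Ebf1 (chromosome 11, 44617317 to 45008091), which acts upstream of Pax5, was at 0.118 and 0.548 FPKM in control and at 1.6 and 0.592 FPKM with R848. Its shift was 1.22 in mouse 4050 and 0.04 in mouse 4182, so the R848 sample of mouse 4182 stood barely above its own control. At the same lower filter the limma adjusted p of Ebf1 was 0.523. The symbol Ebf1 has a second row in the table, listed at 0 in all 4 samples, and the row with values was used.

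**Figure D2:**
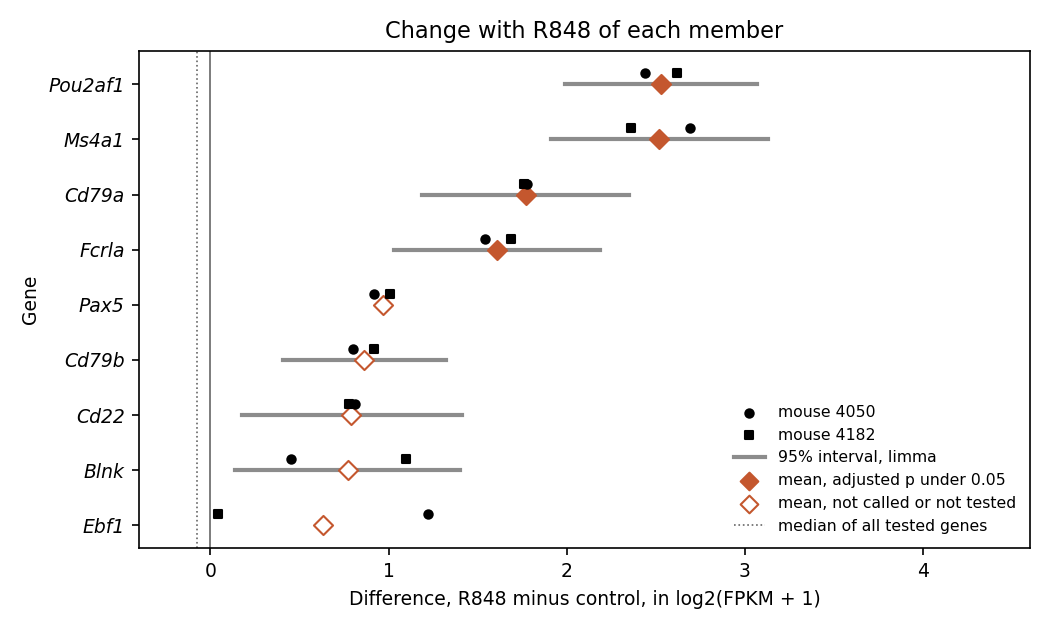
Difference between R848 and control for each member in log2(FPKM + 1), ordered by the mean (diamond), with the 95% limma interval for the 7 tested genes and the value of each mouse in black. The 4 filled diamonds, from 1.61 for Fcrla to 2.53 for Pou2af1, passed at an adjusted p under 0.05, and the mice lie furthest apart for Ebf1 (1.22 and 0.04) and Blnk (0.45 and 1.1).

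Together the members other than Cd79b went from 3.57 to 26.6 FPKM in mouse 4050 and from 2.45 to 22.4 FPKM in mouse 4182, which is 7.45-fold and 9.13-fold. The number of members at 1 FPKM or more went from 2 to 9 in mouse 4050 and from 1 to 8 in mouse 4182. No mouse was ahead throughout. With R848, 5 of the 9 genes were higher in mouse 4050 and 4 (Cd79b, Pax5, Blnk and Pou2af1) in mouse 4182, and in control 6 and 3 were. The median shift over the 9 genes was 1.22 in mouse 4050 and 1.1 in mouse 4182.

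Each R848 sample was also left out in turn, and only differences are given for these fits. Without the R848 sample of mouse 4182 the log2 differences of Pou2af1, Ms4a1, Cd79a and Fcrla were 2.49, 2.76, 1.92 and 1.66. Without that of mouse 4050 they were 2.57, 2.28, 1.63 and 1.57. In these fits the lone R848 sample is assumed to vary like the controls, and the differences of all 7 tested members remained above 0.

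Of the 19 genes reported from a list of kinases, adaptors and coreceptors that relay the receptor signal, 16 were tested and 0 passed limma, with 2 higher at an unadjusted p under 0.05 and a median of 0.09. Over all tested genes 0.381% were called lower. Before adjustment, 656 of the 12612 tested genes were higher and 798 were lower with a limma p below 0.05. The unadjusted counts given for single lists are to be read beside these numbers. Pik3ap1, an adaptor that links the receptor to phosphoinositide 3-kinase, was at 36.6 and 37.2 FPKM in control and at 55.0 and 54.8 FPKM with R848 (log2 difference 0.56, limma adjusted p = 0.173). Bank1, a scaffold protein of B cells, was at 1.17 and 0.963 FPKM in control and at 3.17 and 2.11 FPKM with R848 (log2 difference 0.80, limma adjusted p = 0.247). The groups of both genes did not overlap.

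The kinases next to the receptor were abundant in control and did not pass. Syk, the kinase that binds the phosphorylated Cd79 tails, was at 75.7 and 74.3 FPKM in control and at 94.6 and 75.4 FPKM with R848, a log2 difference of 0.17 (95% interval -0.23 to 0.57). Btk, which activates phospholipase C, was at 47.7 and 51.8 FPKM in control and at 51.4 and 41.3 FPKM with R848, with a difference of -0.11 (95% interval -0.52 to 0.31). Lyn, the Src family kinase that phosphorylates the Cd79 tails, had a difference of 0.25 (95% interval -0.1 to 0.6). All 3 kinases are also used by myeloid cells, and the intervals do not show that their levels were equal.

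Of 8 inhibitory coreceptors and phosphatases 0 passed limma, with 1 higher at an unadjusted p under 0.05 and a list median of -0.05. That gene was Cd72, an inhibitory lectin of B cells, at 4.76 and 7.44 FPKM in control and at 13.6 and 15.7 FPKM with R848. Its groups were well separated, with a log2 difference of 1.16 (limma adjusted p = 0.0704, and 0.00498 with the mouse as a block). Siglecg, a relative of Cd22, had a log2 difference of 0.13 and overlapping groups, and the inhibitory Fc receptor Fcgr2b had a log2 difference of -0.32 (limma adjusted p = 0.635).

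Of 16 other B cell surface genes 12 were tested and 3 rose, with 0 called lower and a list median of 0.49. Of these 3, Fcrl5 and Ly6d reached the filter through their R848 samples only, as did the genes with the 22.0% background above. Both R848 samples lay above both controls for 9 of the 16 and below both for 4, beside 12.8% and 23.8% of symbols above 0. Among those 4 was Fcrlb, not tested, at 1.57 and 0.882 FPKM in control and at 0.306 and 0.221 FPKM with R848. Fcrl5, an Fc receptor-like protein of mature B cells, was at 0.0577 FPKM and listed at 0 in the controls and at 2.85 and 3.43 FPKM with R848 (log2 difference 2.01, limma adjusted p = 0.0111, and 0.0544 after quantile normalization). Ly6d, a surface antigen that marks B lineage commitment among lymphoid precursors, was listed at 0 in both controls and was at 5.83 and 2.92 FPKM with R848 (limma adjusted p = 0.0151). Cd38, an enzyme that consumes NAD and is not restricted to B cells, was at 11.3 and 7.16 FPKM in control and at 61.7 and 48.6 FPKM with R848 (log2 difference 2.48, limma adjusted p = 0.00446). Fcer2a, the low affinity IgE receptor of mature B cells, had a log2 difference of -0.13, and Cd40 had one of 0.78 with limma adjusted p = 0.235.

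Of 15 other transcription factors of B cell development 12 were tested and 0 passed limma, where unadjusted p-values under 0.05 belonged to 1 higher and 1 lower gene and the list median was -0.16. The higher one was Ikzf3 (Aiolos), a zinc finger factor of lymphocytes, at 0.6 and 0.0956 FPKM in control and at 1.91 and 2.19 FPKM with R848, with limma adjusted p = 0.107, and 0.0224 with the mouse as a block. The lower one was Irf4, a factor of plasma cells and myeloid cells, at 9.73 and 8.9 FPKM in control and at 6.32 and 4.39 FPKM with R848, with limma adjusted p = 0.239.

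Of 9 genes of B cell precursors, 8 had a control mean under 1 FPKM. The 1 gene tested was Il7r, the interleukin 7 receptor, at 4.84 and 3.28 FPKM in control and at 2.7 and 1.37 FPKM with R848. Il7r did not pass, with a log2 difference of -0.76 (limma adjusted p = 0.373, unadjusted p = 0.0366). Rag1, of the recombinase that assembles antibody genes, and Vpreb2, of the surrogate light chain, were listed at 0 in all 4 samples. Vpreb3 was at 0.0821 and 0.164 FPKM in control and at 0.626 and 1.67 FPKM with R848, the 1 gene of the list whose R848 samples both lay above both controls. The list summed to 6.25 and 5.05 FPKM in control and to 4.72 and 3.98 FPKM with R848.

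**Figure D3:**
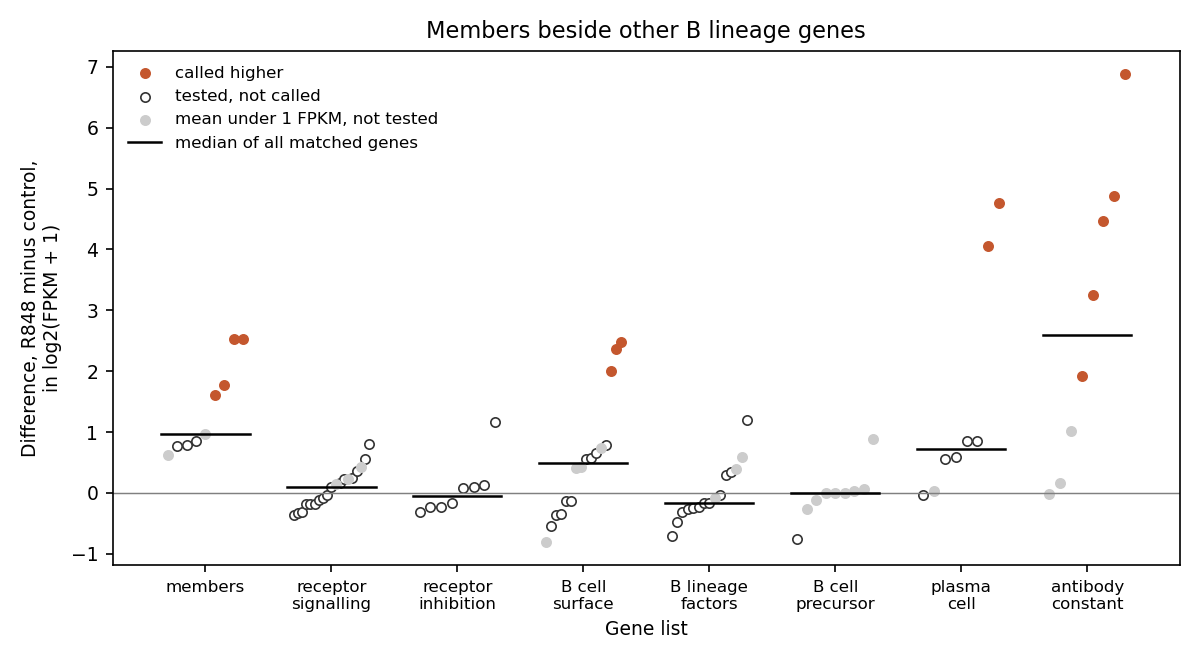
Difference between R848 and control of each matched gene in log2(FPKM + 1) for the members and 7 other lists, with orange for genes called higher, open circles for tested genes not called, grey for genes under the filter and a bar at the median of all matched genes. The medians run from -0.16 for other transcription factors through 0.97 for the members to 2.59 for antibody constant chains.

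Antibody constant chains had a list median of 2.59 in log2, above the 0.97 of the members. Of 8 plasma cell genes 7 were tested and 2 rose, Mzb1 and Jchain. Mzb1, a chaperone of antibody assembly, went from 0.365 and 0.102 FPKM to 18.1 and 20.8 FPKM. Jchain went from 0.405 and 0.464 FPKM to 42.2 and 34.1 FPKM. Both reached the filter through their R848 samples only, as did the genes with the 22.0% background above. The plasma cell regulators Prdm1 and Xbp1 did not pass, with log2 differences of 0.86 and -0.04. Of the 7 tested plasma cell genes, 6 were higher at an unadjusted p under 0.05 by limma, all but Xbp1. Of 12 antibody constant chains 8 were matched, while Iglc1, Iglc3, Ighd and Igha were not. Under the filter were Ighg3 (0 in both controls, 0.974 and 1.08 FPKM with R848), Ighg1 (at most 0.209 FPKM) and Ighe (at most 0.0318 FPKM). All 5 tested chains rose, 3 of them tested through their R848 samples only. The call of Ighg2c ended after quantile normalization (limma adjusted p = 0.0874) and median log ratio scaling (0.0773). Among the 5 were the light chains Igkc and Iglc2 (log2 differences 6.88 and 4.88). Another was Ighm, the heavy chain of IgM, from 18.4 and 18.4 FPKM to 513 and 358 FPKM, so that 494 and 340 FPKM of Ighm were gained beside 4.06 and 3.31 FPKM of Cd79a. These lists were among those already known to move in these data.

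The genes of the 5 lists of other B lineage genes were also split by their level in control. The split by control level was chosen after the values were seen. Of 19 genes above 0 with a control mean under 1 FPKM, 12 had both R848 samples above both controls (63.2%). For 2 of the 19 both lay below (10.5%). The shares over all symbols at that level were 13.6% and 15.3%, and the median difference of the 19 genes was 0.39. Of 16 genes with a control mean from 1 to 10 FPKM, 6 had both R848 samples above both controls and 6 had both below (37.5% each), beside 11.2% and 33.9% of all symbols at that level, and their median difference was -0.14. Of 30 genes with a control mean of at least 10 FPKM, 3 had both R848 samples above both controls (10.0%). For 10 of the 30 both lay below (33.3%). The shares over all symbols at that level were 12.8% and 27.4%, and the median difference of the 30 genes was -0.15. In the class of at least 10 FPKM 0 of 30 passed limma, with 1 at an unadjusted p under 0.05. Calls in the class under 1 FPKM are not set beside these, since a gene there was tested only where its R848 samples were high.

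**Figure D4:**
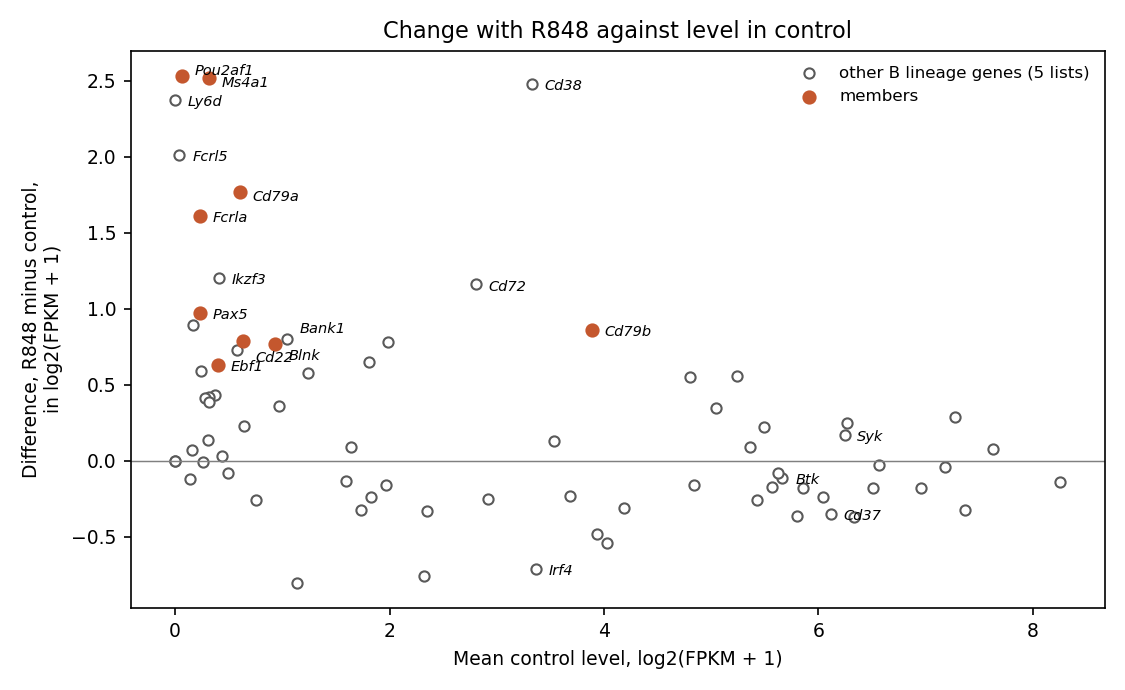
Difference between R848 and control in log2(FPKM + 1) against the mean control level on the same scale, with members in orange and the genes of 5 other B lineage lists as open circles. Except for Cd79b the members lie at the low end of the control axis, where Ly6d and Fcrl5 also lie, and the genes at the high end, such as Syk and Btk, scatter around 0.

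Markers of other cell types also differed between the groups, and their part in the results above was not tested. Of 8 macrophage markers 7 were tested and 4 rose (Adgre1, C1qb, C1qc and Marco, with log2 differences of 1.43, 1.74, 1.97 and 5.88). Marco reached the filter through its R848 samples only. The list summed to 228 to 250 FPKM in control and to 617 to 736 FPKM with R848. While 5 of the 8 were higher with R848 in both mice, Cd68 and Vsig4 were lower in both. Their log2 differences were -0.35 (limma adjusted p = 0.543) and -0.4 (under the filter and not tested). The C1qb call ended after quantile normalization (limma adjusted p = 0.0594) and lay at the threshold after median log ratio scaling (0.05), while C1qa passed with the mouse as a block (0.00317). Of 13 T cell markers 7 were tested and 1 rose, Cd3g, from 0 and 0.272 FPKM to 2.15 and 3.49 FPKM. The list sums were 70.8 to 102 FPKM in control and 121 to 130 FPKM with R848. Their largest term was Thy1, at 39.5 and 75.8 FPKM in control and at 84.8 and 94.9 FPKM with R848 (limma adjusted p = 0.406). Cd3d had a log2 difference of 0.01, and 10 of the 13 markers were higher with R848 in both mice. Cd3g was tested through its R848 samples only, and its call (limma adjusted p = 0.0327) ended with a pseudocount of 0.1 (0.0674), quantile normalization (0.105) and median log ratio scaling (0.0904). Cd2 passed with the mouse as a block (limma adjusted p = 0.0166). Cd3e, which the T cell receptor complex requires, was at 0.219 FPKM or less in every sample. Of 9 NK cell markers 4 were tested and 0 passed limma (1 higher at an unadjusted p under 0.05, Klrk1 at 1.06, with Nkg7 at 0.29), and Ncr1 was listed at 0 in both controls. The NK list summed to 152 to 260 FPKM in control and to 243 to 245 FPKM with R848.

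Plasmacytoid dendritic cells share some B lineage genes, and the summed level of their markers was lower with R848 in both mice. Of 8 such markers 3 were tested and 0 passed limma (2 lower at an unadjusted p under 0.05, Cox6a2 at -1.92 and Smim5 at -0.73). The list sums were 39.4 to 61.2 FPKM in control and 25.8 to 25.9 FPKM with R848. In mice 4050 and 4182, Cox6a2 changed by -6.68 and -14.8 FPKM and Smim5 by -3.54 and -14.0 FPKM. Siglech, not tested, was at 0.66 and 0.999 FPKM in control and at 0.772 and 0.916 FPKM with R848, a log2 difference of 0.02. With the mouse as a block Cox6a2 passed as lower (limma adjusted p = 1.6e-04), as did Itgax of the conventional dendritic cell markers (0.00132), and that fit called 1.9% of all genes lower. Of 7 conventional dendritic cell markers 3 were tested and 0 passed limma (1 lower at an unadjusted p under 0.05, Itgax at -2.08, with Zbtb46 at -0.19), with sums of 8.79 to 24.0 FPKM in control and 5.23 to 7.41 FPKM with R848. Flt3, a gene of this dendritic cell list too, had a log2 difference of -1.18, was under the filter and was not tested. Of 13 myeloid markers 0 passed limma, with 3 higher at an unadjusted p under 0.05, Fcgr3 (0.5) and Csf1r (0.67) having the smallest p. Csf1r passed with the mouse as a block (limma adjusted p = 0.0215). Of 7 erythroid markers 1 (Gata1) was tested and 0 passed or had an unadjusted p under 0.05 by limma, with sums of 8.01 to 9.73 FPKM in control and 6.81 to 10.4 FPKM with R848.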

How the data were processed

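RNA sequencing was done on 4 samples. Per the labels' protocols, RNA with an integrity number above 8.0 was read as pairs of 150 nucleotides at a nominal 30000000 reads, and both ribosomal depletion and a stranded mRNA kit are named. Per the submitters' processing notes, kallisto and mm10 were used, while versions and annotation are not stated. The values are log2 as deposited, called FPKM by the authors, with nearly equal linear sums in each library, as TPM has. Of 28192 rows, 27 with names turned into dates and 91 repeats were dropped, the highest row of each symbol being kept.

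Genes whose mean reached 1 FPKM were fitted on log2(FPKM + 1) by limma (version 3.58.1, R 4.3.3) with a trended prior on the variance, testing both directions, without the mouse as a block. Residual degrees of freedom were 2, and the prior added 5.27. The code was tested on simulated data. Samples with the same number come from the same mouse per the labels (correlation of deviations from the group means 0.289 over 12612 genes), so the mouse as a block was an alternative, beside a pseudocount of 0.1, other filters, 2 rescalings, no variance trend and leaving out each sample. Separate cultures within a mouse are not described, so the spread between samples is that between mice.

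The members and the 14 other lists (152 entries, 4 matched by an older symbol and 5 not matched) were chosen with earlier results of these data known. 1 further list gene is not reported here, and list counts leave it out. Named were all members and from each list the 2 called genes with the smallest p in each direction, or without calls the 2 smallest, and markers at 0. Lyn, Syk, Btk, Siglecg, Ly6d, Fcer2a, Cd40, Pou2f2, Vpreb3, Prdm1, Xbp1, Ighm, Adgre1, C1qb, Cd3e, Siglech, Dnmt3a, Flt3, Gm2962, C1qa, Cd2, Ighg2c, Ighg3, Ighg1, Ighe, Cd68, Vsig4, Thy1, Cd3d, Fcrlb and the myeloid genes of the summed level were added after their values were seen. Gene spans follow GENCODE M21 (GRCm38). Plots used matplotlib 3.10.9 (Python 3.11.15).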

Additional observations from a re-analysis of the deposited data

How the results depend on the processing

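Every difference of the 9 members stayed above 0 in every alternative in which the gene could be fitted. The count of members called higher was 4 and stayed from 3 to 5 under the other pseudocount, both rescalings, the mouse as a block (5, with Cd79b), the block with either rescaling (5 each), a prior without a variance trend and the 0.5 FPKM filter (4). It was 0 with no filter on low values, where 8 of 9 had an unadjusted p under 0.05 by limma, and 0 at a filter of 5 FPKM, where Cd79b alone was left to test (unadjusted p under 0.05 by limma for that 1 gene). With no filter the surface, plasma cell and antibody lists also had 0 calls, as did all 21710 genes together, with 1880 at an unadjusted p under 0.05 by limma. At 5 FPKM the inhibitory and surface lists had 1 each. The signalling list had 0 calls in every alternative run, where limma gave 1 to 3 of its genes an unadjusted p under 0.05. With the block the inhibitory list and the transcription factors had 1 each. Over all genes 233 were called, 88 after quantile normalization, 107 after median log ratio scaling, 669 with the block, and 490 and 720 with the block and those scalings. Leaving out 1 sample at a time gave 0 to 4 members, 0 to 1 genes for inhibition and transcription factors, 0 to 3 for the surface list, 3 to 5 for antibody chains, 2 for plasma cells and 56 to 395 over all genes. The cause of these moves was not tested. The block with rescaling and the 0.5 FPKM filter were added after the data were seen.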
